A study of Mus musculus with 2 samples.

Results

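The genes described here are 8 members of the AP-1 family of transcription factors, chosen by symbol: Jun, Junb, Jund, Fos, Fosb, Fosl2, Atf3 and Batf. All 8 were found among the 32285 genes listed in both single-cell RNA matrices. The cells were late promyelocytes, sorted from leukemic bone marrow of mice as Cd34-, FcγR+, Gr1+, C-Kit+ and Cd45.2+, and in both groups they were PLZF/RARA transformed progenitors. The vehicle group received corn oil with 10% DMSO into the peritoneum and the retinoic acid group 0.8 to 1 mg of the drug by the same route, both for 7 days, in cohorts of 3 to 5 mice whose age and strain are not given in the sources used here. Sorted cells were loaded for droplet capture 30 min after the sort. How the fusion was introduced, and how many mice contributed to a library, is not given in the sources used here. With 1 library for vehicle and 1 for retinoic acid, none of the differences has a replicate check, p-values are not given, and the 95% intervals cover counting error only.

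AP-1 factors bind DNA as dimers held together by a leucine zipper. JUN proteins pair with each other or with FOS proteins, whereas FOS proteins need a partner from another subfamily. The immediate early genes include, among others, Fos, Fosb, Jun and Atf3. Growth factors, cytokines and stress, cell handling included, switch such genes on through MAP kinases without new protein synthesis. Their short-lived RNAs are soon lost again. Jund is present more steadily in many cells. BATF pairs with JUN proteins, also at composite sites, and ATF factors can pair with JUN proteins too. In myeloid cells JUN is known for its part in monocyte differentiation and JUNB for restraining proliferation.

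Filtering left 5476 vehicle cells, whose UMIs (unique molecular identifiers, each marking 1 captured RNA molecule) came to 99107718, and 7140 retinoic acid cells, with 110088247 UMIs. The medians per cell were 16749.5 and 14604 UMIs. The libraries shared 11 barcodes, and leaving those out moved no member ratio beyond its counting interval, with Atf3 not recomputed. Mitochondrial genes took 2.10% and 1.32% of all UMIs, and the neutrophil maturation list 0.275% and 6.57%. Among promyelocyte markers, Ctsg was at 6444 and 5979 CPM (counts scaled to a library total of 1000000 UMIs) and Ms4a3 at 850 and 2087 CPM, while Mpo was at 311 and 0.4996 CPM and Elane at 62.8 and 7663 CPM. The 9 mast and basophil markers summed to 739 and 66.4 CPM and the 8 monocyte and macrophage markers to 85.7 and 14.8 CPM. The 8 T and NK cell markers summed to 1285 and 575 CPM, nearly all Nkg7. Of these 8, 3 had no count in the vehicle and 4 none in the retinoic acid library. The part of these differences in the AP-1 values was not tested.

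To show which sites AP-1 or CREB-type factors could read there, some start regions are printed. They belong to Jun, Fos and Fosb, the measured members with the largest fold differences, and to Junb, which differed little. They are the 250 bases before the RefSeq start on GRCm38.p6, on the gene's own strand and 5′ to 3′: Jun at chr4:95052223-95052472 (minus strand), Fos at chr12:85473640-85473889 (plus strand), Fosb at chr7:19310046-19310295 (minus strand) and Junb at chr8:84978749-84978998 (minus strand). Capitals mark TGACATCA, TGACG or TATAAA.
Jun: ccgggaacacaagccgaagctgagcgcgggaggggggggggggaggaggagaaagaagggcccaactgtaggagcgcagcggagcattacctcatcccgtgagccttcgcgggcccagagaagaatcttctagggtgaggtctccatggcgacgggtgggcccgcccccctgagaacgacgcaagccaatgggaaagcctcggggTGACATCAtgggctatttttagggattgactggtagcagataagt
Fos: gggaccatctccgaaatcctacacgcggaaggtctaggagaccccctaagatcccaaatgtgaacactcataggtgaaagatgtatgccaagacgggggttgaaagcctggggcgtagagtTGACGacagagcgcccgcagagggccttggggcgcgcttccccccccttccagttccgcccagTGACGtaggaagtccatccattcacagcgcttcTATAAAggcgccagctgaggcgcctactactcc
Fosb: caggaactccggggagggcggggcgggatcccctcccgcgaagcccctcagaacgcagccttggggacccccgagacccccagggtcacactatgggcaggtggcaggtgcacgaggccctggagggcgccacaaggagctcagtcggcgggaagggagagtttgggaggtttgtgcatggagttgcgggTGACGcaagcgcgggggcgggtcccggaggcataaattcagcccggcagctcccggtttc
Junb: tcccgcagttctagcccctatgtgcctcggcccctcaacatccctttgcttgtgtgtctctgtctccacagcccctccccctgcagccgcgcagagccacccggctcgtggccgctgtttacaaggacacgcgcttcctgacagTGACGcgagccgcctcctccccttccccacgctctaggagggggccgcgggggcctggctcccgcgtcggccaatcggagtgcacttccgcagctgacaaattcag

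Motifs were searched on both strands in these 250 bases of 32851 RefSeq promoters. The Jun promoter holds TGACATCA, the AP-1 and CREB-like site, from 45 to 38 bases before the start, a match found in 2.93% of all promoters. TGACG, the shorter core of the cAMP response element, occurs at 2 places in the Fos promoter and at 1 in each of the Fosb, Junb, Batf and Atf3 promoters, and in 17.8% of all promoters. The TATAAA box of Fos begins 33 bases before its start (12.4% of all promoters hold these letters). None of the 8 windows holds TGANTCA (6.75% of promoters), TGACGTCA (1.55%), AGGTCA (14.0%) or a CArG box (1.47%), the site of serum response factor. Sites outside these 250 bases, or with other letters, were not searched, so their absence from the genes cannot be read from this. The RefSeq start of Jund lies 1210 bases before the GENCODE gene start, that of Atf3 34706 bases and that of Fosl2 671 bases from it, so those windows describe other starts of these genes.

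By log2 ratio, though with an interval that overlapped that of Fosb, Jun was the member with the largest difference. Its level was 30.4 CPM (29.4 to 31.5) in the vehicle library, from 3016 counts, and 2.31 CPM (2.03 to 2.61) in the retinoic acid library, from 254 counts. The retinoic acid library was thus lower by a log2 ratio of −3.72 (−3.91 to −3.54), or 13.2-fold. Jun (ENSMUSG00000052684, GRCm38 chromosome 4, 95049034 to 95052222, minus strand) encodes the c-JUN subunit. An antisense gene, Junos, overlaps it by 232 exon bases, of which the nearest lies 2500 bases from the 3′ end of Jun.

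Jund and Junb were lower by much less. Jund (ENSMUSG00000071076, chromosome 8, 70698949 to 70700616, plus strand), which encodes the steadily expressed JunD, had 21758 and 12139 counts, or 219.5 CPM (217 to 222) and 110.3 CPM (108 to 112), a log2 ratio of −0.99 (−1.03 to −0.96). Junb (ENSMUSG00000052837, chromosome 8, 84974484 to 84978718, minus strand) had 3434 and 2622 counts, or 34.6 CPM (33.5 to 35.8) and 23.8 CPM (22.9 to 24.7), a log2 ratio of −0.54 (−0.61 to −0.47). Jund lay just short of a 2-fold difference. The Junb value is uncertain in a further way: Prdx2, on the opposite strand, shares 173 exon bases with it including its 3′ end, where this chemistry reads, and strand use in the counting is not given in the sources used here. Prdx2 was at 209.6 and 162 CPM, a log2 ratio of −0.37 (−0.40 to −0.35).

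The FOS genes were low in both libraries and lower after retinoic acid. Fos (ENSMUSG00000021250, chromosome 12, 85473890 to 85477273, plus strand) had 767 counts (7.74 CPM, 7.20 to 8.31) under vehicle and 194 counts (1.76 CPM, 1.52 to 2.03) under retinoic acid, a log2 ratio of −2.13 (−2.37 to −1.91). Fosb (ENSMUSG00000003545, chromosome 7, 19302696 to 19310051, minus strand), a close relative that answers to many of the same signals, had 220 and 27 counts, or 2.22 CPM (1.94 to 2.53) and 0.245 CPM (0.162 to 0.357), a log2 ratio of −3.15 (−3.81 to −2.60). Fosl2 (ENSMUSG00000029135, chromosome 5, 32135801 to 32157842, plus strand), which encodes FRA2, had 488 and 306 counts, or 4.92 CPM (4.50 to 5.38) and 2.78 CPM (2.48 to 3.11), a log2 ratio of −0.82 (−1.04 to −0.62). Of the 3 FOS genes, Fos and Fosb were thus more than 2-fold lower and Fosl2 was not.

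Batf differed least of the measured members, and Atf3 was almost undetected. Batf (ENSMUSG00000034266, chromosome 12, 85686669 to 85709087, plus strand) had 1397 counts (14.1 CPM, 13.4 to 14.9) and 1654 counts (15.0 CPM, 14.3 to 15.8), a log2 ratio of 0.09 (−0.01 to 0.20). Whether that interval includes 0 depends on the scaling: it was 0.17 (0.07 to 0.28) with TMM scaling and 0.19 (0.08 to 0.29) with maturation genes taken out of the totals. Atf3 (ENSMUSG00000026628, chromosome 1, 191170296 to 191218039, minus strand), a stress-induced repressor in many tissues, had 4 vehicle counts and 0 under retinoic acid. As 0 counts can stand for up to 3, or 0.0273 CPM, Atf3 was at least 1.48-fold higher in the vehicle library by that floor, while the interval from the counts alone reached up to a log2 ratio of 0.45. No direction is read for it.

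**Figure D1:**
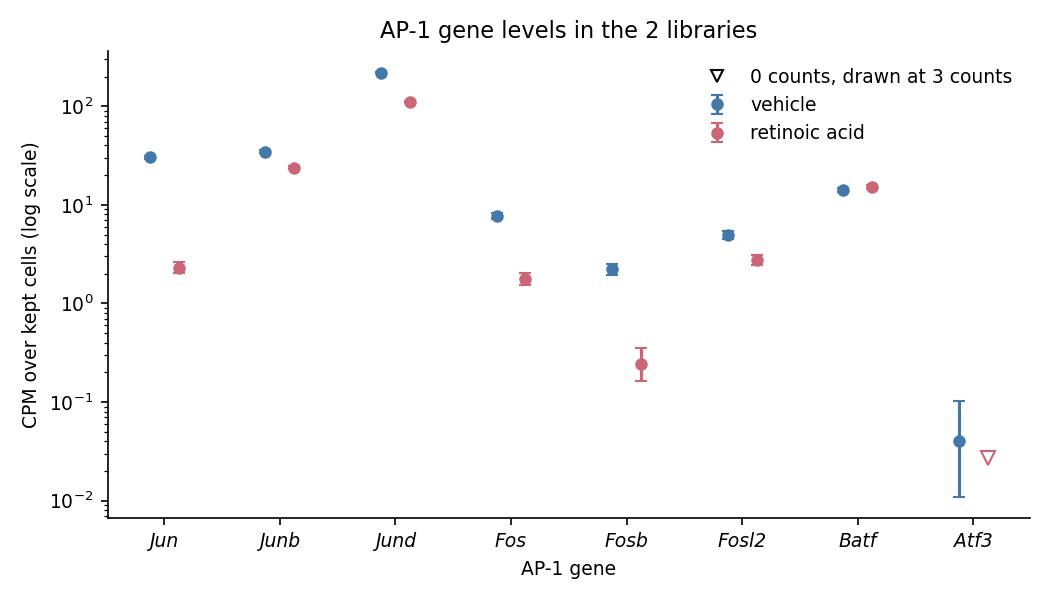
Level of each AP-1 gene in the vehicle (blue) and retinoic acid (red) library, in CPM over all kept cells on a log axis; points are sums over 1 library and bars exact 95% Poisson intervals. Jun, Fos and Fosb are far apart between libraries, Batf overlaps at 14.1 and 15.0 CPM, and the open triangle marks Atf3 with 0 counts, drawn at 3 counts.

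Read against all genes, 3 of the 7 members that reached 10 counts in the summed libraries were at least 2-fold lower (Jun, Fos and Fosb), where 15.0% of the 14561 genes with as many counts were. None of the 7 was at least 2-fold higher, against 5.72% of those genes (20.8% passed in either direction). Of the 3 members with at least 20 CPM in either library (Jun, Junb and Jund), 1 was at least 2-fold lower, against 5.05% of 5548 genes, and none was that much higher, against 3.03% (8.07% in either direction). The median log2 ratio was −0.99 over the 7 members, −0.08 over all 14561 genes and 0.01 over the 5548. The 8 genes together took 314 CPM (310 to 317) of the vehicle library and 156 CPM (154 to 159) of the retinoic acid library. Within that sum the share of Jun went from 9.70% to 1.48% and that of Batf from 4.49% to 9.62%, while Jund held 70.0% and 70.6%. In these sorted cells, fewer cells with a gene's RNA and less RNA per cell cannot be told apart from the sums alone, and the counts per cell follow.

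Shares of cells were compared after each cell with at least 5000 UMIs had been thinned at random to 5000, which left out 194 shallower vehicle cells and 481 retinoic acid cells, so that 5282 and 6659 remained. A Jun UMI was seen in 518 vehicle cells (9.81%, 9.02 to 10.6) and 76 retinoic acid cells (1.14%, 0.900 to 1.43), and the difference was −8.67 percentage points (−9.53 to −7.84). The unthinned shares were 19.5% and 3.00%. Fos was seen in 2.63% (2.22 to 3.10) and 0.706% (0.519 to 0.937) of cells, Fosb in 40 of 5282 (0.757%) and 5 of 6659 (0.0751%), and Fosl2 in 2.75% (2.32 to 3.22) and 1.44% (1.17 to 1.76). The Fosl2 difference was lost at 3000 UMIs per cell, where it was −0.35 percentage points (−0.76 to 0.04). The detectable pool of Jun, Fos and Fosb cells was thus smaller after retinoic acid at equal depth.

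Jund was seen in most vehicle cells, 61.7% (60.4 to 63.0), and in 41.9% (40.7 to 43.0) of retinoic acid cells. Junb was seen in 16.3% (15.3 to 17.3) and 12.0% (11.2 to 12.8), and Batf in 7.23% (6.55 to 7.96) and 7.16% (6.56 to 7.81), which differ by −0.07 percentage points (−1.01 to 0.86). Atf3 was seen in 2 vehicle cells and in 0 of 6659 retinoic acid cells, which, at 3 cells, allows a share of cells with a UMI of up to 0.0451%. Without thinning, the shares for vehicle and retinoic acid were 5.68% and 2.49% for Fos, 2.23% and 0.266% for Fosb, 8.35% and 3.99% for Fosl2, 39.1% and 28.4% for Junb, 90.4% and 72.1% for Jund, and 22.1% and 20.2% for Batf. No cell type known to lack these genes was identified in the sort, so free RNA in the droplets was not separated from expression.

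The genes also differed in how evenly they were spread over cells. The Fano factor, the variance of UMIs per cell over their mean, is 1 where counts follow a Poisson law. For Batf it was 1.00 in both libraries, and for Fosl2 it was 1.06 and 1.01. Fos reached 2.28 in the vehicle library against 1.07 in the retinoic acid library, Jun 1.92 against 1.27, Jund 1.52 against 1.20 and Junb 1.24 against 1.05. Fosb ran the other way, at 1.25 against 1.86, but its retinoic acid value rests on 5 positive cells. Vehicle cells with Fos carried on average 1.61 UMIs of it and vehicle cells with Jun 1.52, against 1.04 and 1.12 in the retinoic acid library. At 5000 UMIs per cell, 168 vehicle cells held 2 or more Jun UMIs and 8 held 5 or more, against 7 and 0 retinoic acid cells. The mean Jun level of the vehicle library would give 13.8% positive cells if it followed a Poisson law, and 9.81% were found. Fos and Jun RNA under vehicle was therefore held by fewer cells, with more UMIs each, than that law gives.

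**Figure D2:**
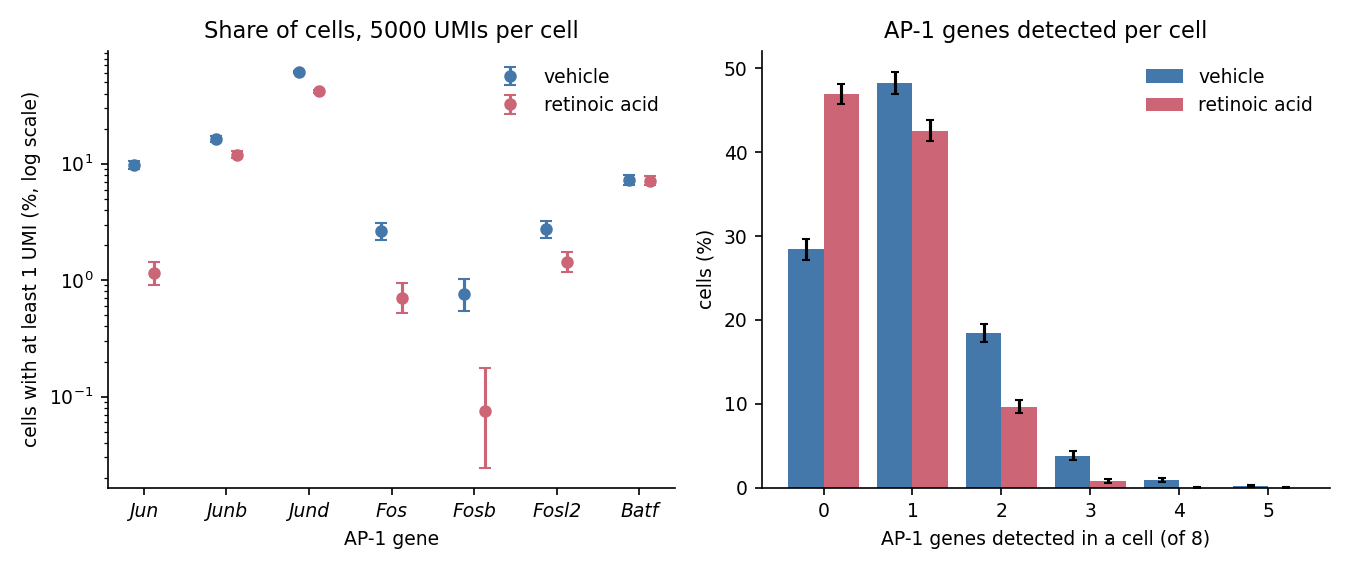
Left, share of cells with at least 1 UMI of each AP-1 gene at 5000 UMIs per cell (percent, log axis; bars are exact binomial 95% intervals; Atf3 is left out). Right, percent of cells by the number of AP-1 genes detected; cells with 2 or more made up 23.3% of the vehicle and 10.5% of the retinoic acid library.

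Co-expression was read as the number of cells positive for both genes of a pair over the number that the separate shares would give. Under vehicle, Fos, Fosb and Jun were found together in more cells than that. Fos and Jun were both seen in 71 cells where 13.6 were expected, a ratio of 5.21 (4.07 to 6.57), and 51.1% of Fos-positive cells had Jun against 8.69% of Fos-negative cells. Of the Jun-positive cells, 13.7% had Fos and 6.56% had Fosb, so 447 of 518 were without a Fos UMI. Fosb and Jun were both seen in 34 cells where 3.92 were expected, a ratio of 8.67 (6.002 to 12.1), so that 85.0% of the 40 Fosb-positive cells had Jun. Fos and Fosb were both seen in 17 cells where 1.05 were expected, a ratio of 16.2 (9.41 to 25.9). Without thinning the ratios were smaller, 3.58 (3.12 to 4.09) for Fos with Jun, 4.37 (3.57 to 5.30) for Fosb with Jun and 9.81 (7.62 to 12.4) for Fos with Fosb. All 3 genes were found in 16 vehicle cells, 0.303% (0.173 to 0.491), where 0.103 cells were expected.

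The other pairs stayed nearer to the expected number. Fos with Junb gave 49 vehicle cells against 22.7 expected (ratio 2.16, 1.60 to 2.86), and Jun with Junb gave 124 against 84.5 (1.47, 1.22 to 1.75). Jun with Jund gave 397 against 320 (1.24, 1.12 to 1.37), and Junb with Jund 590 against 532 (1.11, 1.02 to 1.20). Batf pairs had intervals that included 1, with ratios of 1.07 with Jun (0.763 to 1.45), 0.895 with Fos (0.409 to 1.70), 1.04 with Junb (0.805 to 1.33) and 1.07 with Jund (0.941 to 1.21). Taking the expectation within cell cycle phases left the Fos and Jun ratio at 5.21 and the Fosb and Jun ratio at 8.78.

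In the retinoic acid library few cells were left in which pairs could be seen. Fos and Jun were found together in 4 cells where 0.536 were expected, a ratio of 7.46 (2.03 to 19.1), whose interval spans the vehicle value. That ratio depended on depth: it was 2.06 (1.03 to 3.69) without thinning, and at 3000 UMIs per cell no such cell was seen (0 to 13.1). Fosb met Fos in 1 cell and Jun in 1 cell, too few for a ratio to be read. Junb and Jund gave 383 cells against 333 (1.15, 1.04 to 1.27), close to the vehicle ratio. At least 1 of the 8 genes was detected in 71.6% (70.3 to 72.8) of vehicle and 53.0% (51.8 to 54.2) of retinoic acid cells, and 3 or more in 261 vehicle cells (4.94%, 4.37 to 5.56) and 53 retinoic acid cells (0.796%, 0.597 to 1.04).

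**Figure D3:**
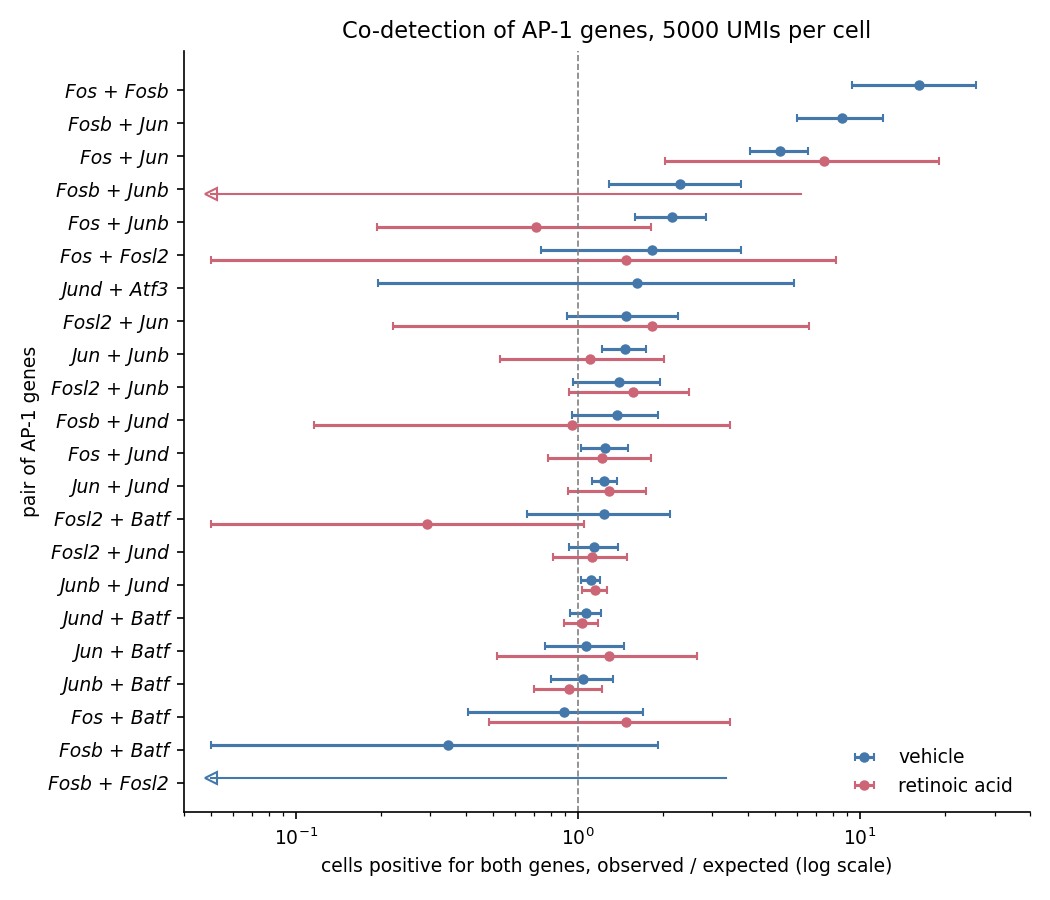
Cells positive for both genes of a pair, observed over expected, at 5000 UMIs per cell on a log axis, for pairs with at least 0.5 cells expected; bars are exact 95% Poisson intervals, drawn no lower than 0.05, arrows mark pairs never seen together, and the dashed line is 1. Pairs among Fos, Fosb and Jun stand highest in the vehicle library (5.21 to 16.2), while pairs with Batf lie at 1 within their intervals.

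The 71 vehicle cells with both Fos and Jun UMIs were set beside the 4696 with neither, at equal depth. Of 22 immediate early genes with enough UMIs, 21 were seen in a larger share of the cells with both, and for 11 the intervals of the shares did not overlap; over all 12102 genes with at least 10 UMIs, 1.53% were higher in that way and 0.521% lower. Those 11 were Dusp1, Btg2, Klf6, Zfp36, Ier3, Btg1, Ier2, Ier5, Klf2, Zfp36l1 and Rhob. Dusp1, a phosphatase that switches MAP kinases off, was seen in 32.4% of cells with both against 2.53% of cells with neither. Zfp36, which marks short-lived RNAs for decay, was seen in 26.8% against 4.41%, and Btg2, an antiproliferative gene, in 42.3% against 12.7%. Egr1 was seen in 1 of the 71 cells, 1.41%, and in 0.660% of cells with neither.

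Other members moved with this group as well: Fosb was seen in 22.5% against 0.106% of cells, Junb in 45.1% against 15.4% and Jund in 85.9% against 60.0%, whereas Batf was at 5.63% against 7.18% and Fosl2 at 5.63% against 2.58%. Of the 14 heat shock genes, 2 had intervals apart: Hspa1a was seen in 16.9% against 0.894% of cells and Hspa1b in 15.5% against 1.92%. Both encode the inducible HSP70 chaperone, which rises with heat and with handling, and both differed between the libraries too, Hspa1a at 4.79 and 0.481 CPM and Hspa1b at 9.46 and 1.35 CPM. The part of handling in the AP-1 values was not tested. The median depth was 19290 UMIs in cells with both and 16939 in cells with neither, the median mitochondrial share 1.92% and 1.97%, and the share in G1 phase 43.7% (31.9 to 56.0) and 52.6% (51.2 to 54.1). Of the 18 neutrophil maturation, 8 promyelocyte, and 5 mast and basophil genes with enough UMIs, none had intervals apart, while 3 of 43 S phase genes (Dtl, Prim1 and Nasp) and 3 of 54 G2/M genes (Cks2, Tacc3 and Aurkb) were higher with intervals apart.

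**Figure D4:**
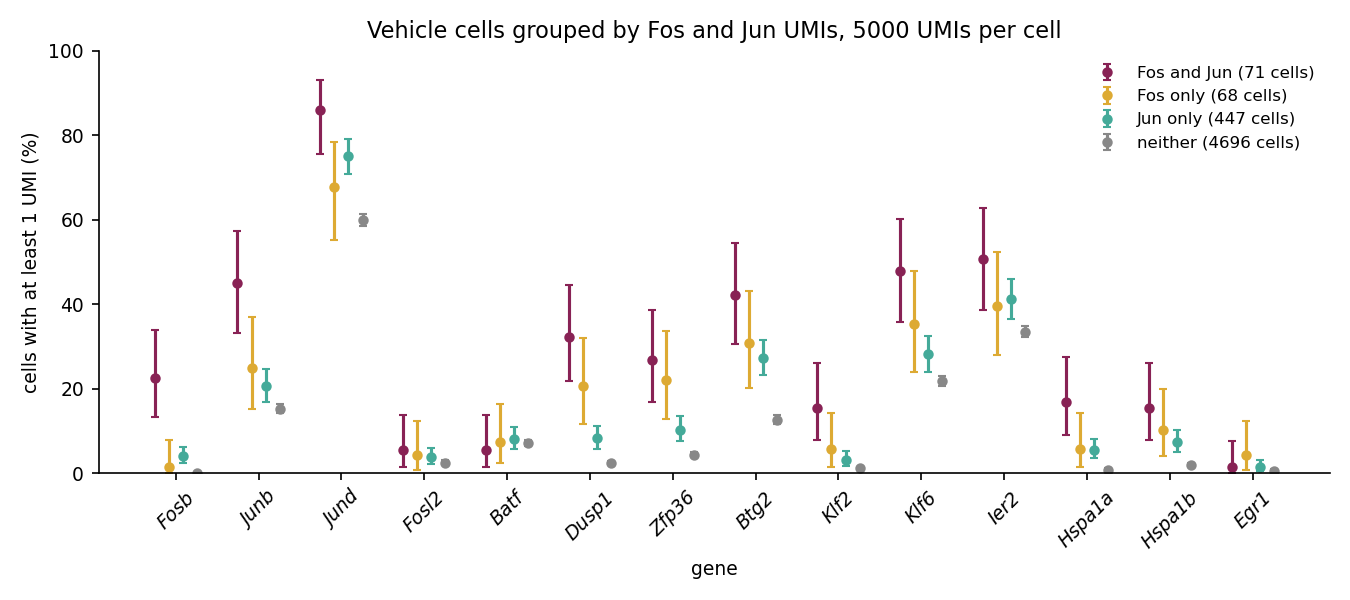
Percent of vehicle cells with at least 1 UMI of each gene at 5000 UMIs per cell, for the 71 cells with both Fos and Jun UMIs, 68 with Fos only, 447 with Jun only and 4696 with neither; bars are exact binomial 95% intervals, and the genes shown were picked after their values were seen. Dusp1 goes from 2.53% in cells with neither to 32.4% in cells with both, while Batf does not separate the groups.

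Across cell cycle phases, called from lists of S and G2/M genes, Junb, Jund and Fosl2 were highest in G1 cells of both libraries. For Fosl2, though, the intervals of G1 and S cells overlap in both, at 6.57 and 5.26 CPM under vehicle and 4.62 and 3.11 CPM under retinoic acid. Jund was at 274 CPM (269 to 279) in G1, 183 CPM (175 to 191) in S and 179.5 CPM (176 to 183) in G2/M cells under vehicle, and at 169.9, 118 and 84.1 CPM under retinoic acid. Junb was at 44.6, 32.3 and 26.2 CPM in the same order under vehicle and at 35.1, 25.8 and 18.8 CPM under retinoic acid. In the vehicle library S and G2/M cells did not differ in Jund beyond counting error. G1 cells were also shallower than G2/M cells, with medians of 13827.5 against 23608 UMIs under vehicle and 11048 against 18515 under retinoic acid. In 4 equal groups of vehicle cells by depth, Jund was at 280 CPM in the shallowest and 192 CPM in the deepest. Junb was at 46.1 and 29.4 CPM there and Fosl2 at 10.1 and 3.96 CPM. The part of depth in the order of phases was not tested. Under vehicle Jun did not follow the order of Jund and Junb. It was at 31.4 CPM (29.6 to 33.1) in G1, 36.3 CPM (33.0 to 39.9) in S and 28.0 CPM (26.5 to 29.5) in G2/M cells. Fos was level within its vehicle intervals at 6.96, 8.44 and 8.24 CPM. In retinoic acid cells Jun did follow it, at 3.33 CPM (2.60 to 4.19), 2.92 CPM (2.30 to 3.66) and 1.66 CPM (1.35 to 2.015). There Fos was at 1.62 CPM in G1, 1.19 CPM (0.81 to 1.69) in S and 2.09 CPM (1.74 to 2.48) in G2/M cells.

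Since G1 cells made up 50.9% of kept vehicle and 26.0% of kept retinoic acid cells, the libraries were also compared within phases. Jun had log2 ratios of −3.23 (−3.60 to −2.89) in G1, −3.63 (−4.01 to −3.28) in S and −4.07 (−4.38 to −3.78) in G2/M cells, and Fos of −2.09 (−2.66 to −1.60), −2.81 (−3.45 to −2.23) and −1.98 (−2.28 to −1.69). Jund had −0.69 (−0.74 to −0.64), −0.63 (−0.71 to −0.55) and −1.09 (−1.14 to −1.04), and Junb −0.35, −0.33 and −0.48. All 4 genes were lower in the retinoic acid library in every phase. Fosb was at −1.28 (−2.36 to −0.41) in G1 and −3.46 (−4.38 to −2.73) in G2/M cells, with 34 and 0 counts in S cells. Batf was at 0.01, 0.25 and 0.20, and the last of these had an interval above 0 (0.05 to 0.36). With the vehicle shares of phases set in both libraries the log2 ratio of Jund was −0.78, that of Junb −0.38 and that of Fosb −2.42. Phase calls read free RNA as well, and its part in them was not tested.

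The maturation share, how much of a cell's UMI total 22 neutrophil maturation genes took (in percent), was used to split each library into 4 groups of equal size. Jun lay between 28.8 and 32.2 CPM over the 4 vehicle groups and between 1.73 and 3.08 CPM over the 4 retinoic acid groups, so the libraries did not overlap in any group. Junb was higher with a higher share in both libraries, from 30.9 CPM (28.8 to 33.1) in the lowest to 39.5 CPM (36.9 to 42.2) in the highest vehicle group and from 19.8 CPM (18.3 to 21.4) to 30.2 CPM (27.8 to 32.7) under retinoic acid. Jund was at 103 to 107 CPM in the 3 lower retinoic acid groups and at 134.7 CPM (129.5 to 140.0) in the highest. Batf went from 15.96 CPM (14.6 to 17.4) in the lowest to 11.7 CPM (10.3 to 13.4) in the highest of them. The highest groups were also shallower than the lowest, with medians of 14232 against 17719 UMIs under vehicle and 10028 against 17324 under retinoic acid. In 4 equal groups of retinoic acid cells by depth, Jund was at 153 CPM in the shallowest and 95.5 CPM in the deepest. Junb was at 29.0 and 18.8 CPM there. The part of depth in the levels by maturation share was not tested.

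Cells of the same maturation share were compared as well. Retinoic acid cells whose share did not pass the 95th percentile of the vehicle library numbered 501, with a median depth of 16965 UMIs, and were set against the 5185 vehicle cells in that range, with a median of 16944. Between them the log2 ratios were −3.58 (−4.31 to −3.00) for Jun, −2.79 (−4.00 to −1.93) for Fos, −0.996 (−1.09 to −0.90) for Jund and −1.07 (−1.33 to −0.83) for Junb. Jun and Jund had ratios close to those over all cells. Those of Junb and Fos were further from 0, the latter from 9 retinoic acid counts, and Fosl2, at −0.41 (−1.03 to 0.10), no longer differed beyond counting error. Batf was at 0.32 (0.05 to 0.56). The median maturation share was still 0.144% in these vehicle cells and 0.398% in these retinoic acid cells. Above that percentile lay 291 vehicle and 6639 retinoic acid cells, with median maturation shares of 1.21% and 4.38%. Between those, Fosl2 was at −2.06 (−2.51 to −1.55) and Batf at −0.22 (−0.56 to 0.17). Jun was at −3.70 (−4.02 to −3.36), Fos at −1.84 (−2.42 to −1.15), Jund at −0.90 and Junb at −0.64 there.

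**Figure D5:**
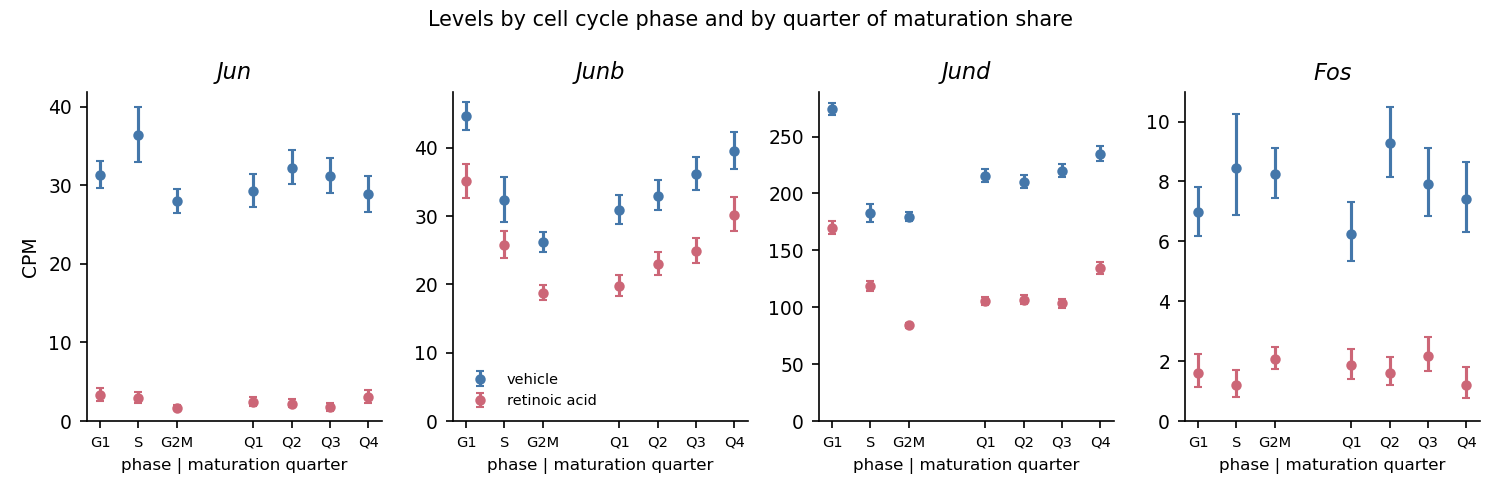
Levels of Jun, Junb, Jund and Fos in CPM (linear axes from 0) by cell cycle phase and by 4 equal groups of maturation share (Q1 lowest, Q4 highest) in vehicle (blue) and retinoic acid (red) cells; bars are exact 95% Poisson intervals. Jund is highest in G1 cells of both libraries (274 and 169.9 CPM), and Jun lies at 28.0 to 36.3 CPM in every vehicle group against 1.66 to 3.33 CPM in every retinoic acid group.

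Vehicle cells were also split by whether they held UMIs of Mpo, the primary granule peroxidase, and of Cpa3, the mast cell carboxypeptidase. Jund was at 248 CPM (244 to 253) in the 2851 cells with Cpa3 only, 209 CPM (203 to 214) in the 1124 with both, 187 CPM (180 to 194) in the 967 with neither and 159.6 CPM (152 to 167) in the 534 with Mpo only. Junb was at 37.8 CPM (36.1 to 39.6) with Cpa3 only and 28.8 CPM (25.6 to 32.2) with Mpo only. Jun lay between 27.6 and 32.7 CPM in these 4 groups with overlapping intervals. Fos was at 4.66 CPM (3.62 to 5.91) in cells with neither and 9.78 CPM (7.99 to 11.9) with Mpo only, which are apart, and at 7.95 and 8.24 CPM with Cpa3 only and with both. The groups differ in depth, from a median of 14431 UMIs with neither to 20776 with both.

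RNA quality measures moved with some members. With vehicle cells in 4 equal groups of mitochondrial share, Jun was at 22.5 CPM (20.6 to 24.5) in the lowest, against 30.7 to 36.7 CPM in the others, and the 144 vehicle cells with at most 0.1% mitochondrial UMIs had 10.5 CPM (6.20 to 16.5). In 4 equal groups by depth Jun was lower in the shallowest vehicle cells, at 21.02 CPM (18.5 to 23.8), than in the deepest, at 32.6 CPM (30.9 to 34.4), while Jund was highest there at 280 CPM (270.2 to 289.5) and went down to 192 CPM (187 to 196) in the deepest. Within the lowest and the highest mitochondrial group the log2 ratio of Jun between libraries was −3.96 (−4.52 to −3.49) and −3.13 (−3.46 to −2.83), and within the shallowest and the deepest depth group −2.79 (−3.37 to −2.30) and −4.22 (−4.58 to −3.91). Fos was at 8.50 CPM (7.35 to 9.78) in the lowest and 5.27 CPM (4.37 to 6.29) in the highest vehicle group of mitochondrial share, and its log2 ratios there were −2.69 (−3.29 to −2.16) and −1.33 (−1.82 to −0.87). All these groups were cut within each library, so their limits differ. Median depths were 9141 UMIs under vehicle and 6966 under retinoic acid in the shallowest group, and 27887 and 23812 in the deepest. Median mitochondrial shares were 0.68% and 0.35% in the lowest group and 3.63% and 2.26% in the highest. The part of RNA quality in the differences given here was not tested.

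Genes whose UMIs varied most like those of a member were named by Pearson's r across the cells of a library, over the 5172 vehicle or 5131 retinoic acid genes with at least 20 CPM. These are weak correlations in sparse counts, which share library and depth and are given as a description. For Jun in 5282 vehicle cells they were Btg2 (r = 0.18), Jund (0.16), Hist1h1c (0.11), Malat1 (0.11) and Neat1 (0.10), where the median gene had 0.0013 and the 95th percentile was 0.031. For Jund they were Prr13, Lgals3, S100a6, Ftl1 and Mt1 (0.20 to 0.18) under vehicle and S100a6, Ltb, Lgals3, Tcp11l2 and Tmsb4x (0.13 to 0.11) under retinoic acid. For Junb they were Akr1c18, Ccl6, Ly6g, Ccl9 and Furin (0.15 to 0.12) under vehicle and S100a6, Jund, Neat1, Emilin2 and Slfn2 (0.063 to 0.051) under retinoic acid. S100a6 and Lgals3 thus stood near Jund in both libraries.

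The gene lists around AP-1 are read against the 14561 genes with at least 10 counts, of which 56.8% were lower, 15.0% at least 2-fold lower and 5.72% at least 2-fold higher. Of the 17 MAP kinase pathway genes, 6 were higher and 11 lower, none by 2-fold, with a median log2 ratio of −0.08. Map2k1, which activates ERK, was at 37.6 and 54.0 CPM, and Mapk3, which encodes ERK1, at 106 and 127 CPM. Of 15 other basic leucine zipper genes with enough counts, 8 were higher and 7 lower, 2 and 2 of them by at least 2-fold, with a median of 0.09. Jdp2, which encodes a repressor that dimerises with JUN, had 764 and 2144 counts (log2 ratio 1.34), whereas Fosl1, which encodes FRA1, had 953 and 246 counts (−2.10) and Maff 239 and 53 counts (−2.31). These 3 lie under 20 CPM and were named after their values were seen. Atf4, the factor of the integrated stress response, was at 179 and 224 CPM.

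The wider immediate early list was split. Of 24 genes with enough counts, 17 were lower and 7 higher, 7 and 1 of them by at least 2-fold, with a median log2 ratio of −0.24. Egr1 had 200 and 13 counts (−4.04), Dusp1 871 and 226 (−2.10) and Ppp1r15a 1265 and 503 (−1.48), all under 20 CPM and named after their values were seen. Among the 10 with at least 20 CPM the median was 0.08, with Ier5 at 0.65 and Rhob at 0.64 and, on the lower side, Btg1 at −0.90, Btg2 at −0.62 and Ier3 at −0.60; Myc was at 119 and 116 CPM. Of the 14 heat shock genes, 11 were lower and 3 higher, 3 and 0 of them by at least 2-fold, with a median log2 ratio of −0.27. The list summed to 7848 CPM under vehicle and 6599 CPM under retinoic acid. Among the 9 with at least 20 CPM the median was −0.18, with Hspa8 at −0.18, Hsp90aa1 at −0.01 and Dnajb1 at −0.12.

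Lists further downstream were read in the same way. Of 11 reported AP-1 targets with enough counts, 8 were lower and 3 higher, 4 and 2 of them by at least 2-fold, with a median log2 ratio of −0.71, which was −0.43 with equal weight for every cell. Vim, the intermediate filament vimentin, was at 1835 and 961 CPM (−0.93), the secreted phosphoprotein Spp1 at 484 and 227 CPM (−1.09), the cytokine gene Csf2 at 21.2 and 7.30 CPM (−1.54) and the urokinase receptor Plaur at 58.6 and 35.7 CPM (−0.71), while the adhesion receptor Cd44 was at 41.7 and 39.3 CPM. Mmp9, which is also a neutrophil maturation gene, was higher, with 33 and 635 counts, and lies under 20 CPM, outside the naming rule. Of 13 NF-κB genes, 7 were lower and 6 higher, 3 and 0 of them by at least 2-fold, close to the share of lower genes overall; Nfkb1 was at 467 and 116 CPM (−2.01), and its inhibitor gene Nfkbia was at 79.7 and 93.5 CPM (0.23).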

How the data were processed

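Each of 2 libraries, 1 per group, was read from the deposited matrices of raw UMI counts per gene and cell, which Cell Ranger 4.0.0 wrote per the file headers; gene identifiers and barcodes, the other deposited values, carry no measurement. The submitters' processing notes name the builds mm10 and GRCm38.p4. The annotation, strand use and rule for calling cells are not given in the sources used here. Per the labels' protocols, 6000 cells per library were aimed for with the Chromium 3′ kit, version 2. Gene positions come from GENCODE M21 (GRCm38), which holds 32158 of the 32285 identifiers, and promoters from RefSeq (GRCm38.p6), which matched all 8 genes.

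Cells with at least 1000 UMIs, 500 genes and at most 10% mitochondrial UMIs were kept, which removed 310 vehicle and 276 retinoic acid barcodes. No doublet caller was run; an alternative left out the 5% of cells with most UMIs. Counts were summed over cells as CPM, with exact Poisson intervals. Log2 ratios are retinoic acid over vehicle with 0.5 counts added and a conditional binomial interval. Shares have Clopper-Pearson intervals and their differences Newcombe's. Counts of 3' ends were not divided by gene length. Phases came from scanpy 1.11.5, scaling by TMM from edgeR 4.0.16. The ratio and co-expression steps were tested on simulated data.

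The 8 genes and the lists were chosen with earlier results of these data known. Named were the 8 genes, up to 10 list genes with at least 20 CPM, and the 5 genes of highest correlation with a member of at least 20 CPM. Outside this rule are genes that overlap a member and genes named where vehicle cells were grouped by Fos and Jun UMIs, Hspa1a and Hspa1b included. Other exceptions are marked. Of the marker lists not given above, sums in CPM for vehicle and retinoic acid were 105 and 27.9 for eosinophil, 2.56 and 2.32 for B cell, 4.20 and 0.781 for erythroid, 29.1 and 1.18 for megakaryocyte and 2.93 and 0.727 for dendritic genes.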

Additional observations from a re-analysis of the deposited data

How the results depend on the processing

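Mice, sorts and preparations cannot be told apart from the treatment. No paired analysis was possible because only 1 library stands for each treatment. Of 189 recomputed values, 142 stayed inside the counting interval of their main value (for counts of genes a factor of 1.5, for list medians the interval of the middle gene or the mean of the middle pair's); causes were not tested except where the setting gives them. The number of members at least 2-fold lower was 3 under all 4 alternatives tried. The log2 ratio of Jun was −3.53 with equal weight for every cell and −3.51 at the vehicle shares of phases, and that of Fos −2.52 in cells thinned to 5000 UMIs. TMM scaling, which adds 0.08 to every log2 ratio, gave −0.46 for Junb and −0.91 for Jund. With maturation genes taken out of the totals these were −0.45 and −0.90, and the vehicle shares of phases −0.38 and −0.78. Thinning gave −0.95 for Jund. The difference in Jun-positive cells was −5.60 percentage points at 3000 UMIs per cell and −16.5 without thinning, since shares follow depth. The observed over expected ratio of Fos and Jun in vehicle cells was 3.58 without thinning, that of Fosb and Jun 4.37. The Fosb log2 ratio was −2.42 at the vehicle shares of phases. Batf was at −0.02 in thinned cells, and its share of cells differed by −1.88 percentage points (−3.32 to −0.44) without thinning. The median of the immediate early list changed sign, from −0.24 to 0.075, over members with at least 20 CPM, and that of the MAP kinase list, from −0.08 to 0.00046, under TMM scaling. With a limit of 5 CPM, 618 genes were at least 2-fold lower and 305 higher. At 100 CPM these were 77 and 56, against 280 and 168 at 20 CPM. Leaving out cells with at most 0.1% mitochondrial UMIs or the shared barcodes, both chosen after seeing the data, moved no member ratio beyond its interval. The Atf3 ratio was not recomputed. Fosb with 27, Jun with 254 and Atf3 with 0 counts under retinoic acid mark where depth limits what can be seen of pairs there.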

Other observations

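Junos, the antisense gene that overlaps the 5′ part of Jun, had 18 vehicle and 74 retinoic acid counts, a log2 ratio of 1.86 (1.13 to 2.72), while Jun itself was at −3.72. The antisense gene that overlaps Jund, Gm11175, had 9 and 5 counts.

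Among all genes other than Fos and Jun, those with the widest gap in share between vehicle cells with both Fos and Jun UMIs and vehicle cells with neither, picked after their values were seen, included several outside the immediate early list. Hist1h1c, a linker histone gene, was seen in 50.7% against 20.7% of cells, Ndufv1, a subunit of respiratory complex I, in 70.4% against 41.1%, Cd69, an early activation antigen, in 38.0% against 12.5%, and Mt2, a metallothionein gene, in 80.3% against 55.7%. The nuclear RNA Neat1 was seen in 56.3% against 34.1%, and over the whole libraries it was at 103.5 CPM under vehicle and 30.2 CPM under retinoic acid.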
